A study of Mus musculus with 34 samples.

Results

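The comparison concerns the neocortex of mice 1 week after repeated kainate injections. It sets 5 arrays titled as kainate neocortex against 6 arrays titled as saline control neocortex, chosen by their titles, 11 of the 34 arrays in the series. Male mice were injected intraperitoneally on postnatal day 23, 3 times at intervals of 2 h, and the animals still alive were killed on postnatal day 30. The kainate mice received 15 mg/kg of kainate per injection, and the saline mice received the vehicle alone. Other mice received 10 mg/kg of nicotine on the same schedule and gave 6 neocortical arrays, which are used here as a second comparison and for the estimate of the spread. The neocortex and the hippocampus were taken from the mice, 1 array per sample, and the hippocampal arrays number 5 for kainate and 6 for saline. The kainate group holds survivors only, and neither the strain nor the severity of any seizure is given in the labels. The p-values describe the spread between mice and their arrays.

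Kainate opens glutamate-gated channels of the kainate and AMPA classes, and at convulsant doses it sets off seizures that arise in the limbic system. Seizures switch on immediate early genes in neurons within minutes to hours, while glial cells respond over days: astrocytes raise intermediate filament proteins, and microglia raise lysosomal, complement and antigen-presentation genes. The hippocampus is the classical site of neuronal damage in this model, and the neocortex is commonly less affected.

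Measures of array quality overlapped between the groups. The median signal of an array was 382.1 to 412.8 with kainate and 376.0 to 422.1 with saline, and the 3 prime to 5 prime signal ratio of the Gapdh control averaged 0.918 with kainate and 0.890 with saline. Exact two-sided permutation tests over the 462 splits of the 11 arrays gave p-values of 0.318 to 0.994 for 4 quality measures, and adjusted p-values of 0.823 to 0.994. The 9 hybridization control probe sets, which report spiked-in RNA, divided the 17 neocortical arrays into 3 clusters that each hold both groups. The clusters are called dimmest, middle and brightest by the level of these controls, not of the whole array. The dimmest holds kainate replicate 4 and saline replicates 4 and 5, the middle one replicates 1 to 3 of both groups, and the brightest kainate replicate 5 and saline replicate 6. Results are therefore also given with this cluster as a block, and within clusters. Of 5 cortical markers, Tbr1, Mef2c, Cux2 and Camk2a had log2 fold changes of 0.13, 0.05, 0.05 and −0.03 with overlapping groups. Fezf2 had −0.42 without overlap, and its signal did not separate the regions, at 2156 in the saline neocortex and 2192 in the saline hippocampus. Tbr1 averaged 6255 in the kainate neocortex and 5671 in the saline neocortex, against 2078 in the saline hippocampus. Haemoglobin alpha (Hba-a1), a marker of blood, ranged from 15049 to 38122 with kainate and from 24117 to 46599 with saline. The choroid plexus marker Ttr ranged from 174.9 to 2001 with kainate and from 185.8 to 1720 with saline, and both genes varied widely within each group.

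Gfap, the intermediate filament protein of astrocytes, rose in the kainate neocortex and was the only call in the comparison. The signal was 4637, 4526, 2840.3, 2792 and 3174 on the 5 kainate arrays, against 1464, 1742, 1332, 1833, 2083 and 1597 on the 6 saline arrays. Every kainate array lay above every saline array, and kainate replicates 1 and 2 lay well above the other three. The mean was 3594 ± 914.5 with kainate (SD, n = 5) and 1675 ± 269.8 with saline (SD, n = 6), a log2 fold change of 1.07 ± 0.14 SE with a limma adjusted p of 0.00139. In bulk tissue, more astrocytes and more Gfap RNA per astrocyte cannot be told apart. Gfap averaged 3801 in the saline hippocampus, above both neocortical means. Hippocampal markers are given below, and whether hippocampal tissue in the samples bears on Gfap was not tested. The Gfap call was 1 of 8695 probe sets tested, or 0.0115%. With the cluster of arrays as a block, 6 probe sets passed (0.069%), 3 higher and 3 lower. The Gfap log2 fold change was 0.51, 1.37 and 0.98 within the dimmest, middle and brightest clusters of arrays, in the same direction in each. The dimmest and brightest clusters hold 1 kainate array each, and a difference between clusters was not tested. A dimmer probe set for Gfap read 1193, 1289, 1054, 775.8 and 1039 with kainate and 587.8, 666.3, 784.3, 485.6, 649.1 and 415.0 with saline. These groups overlapped by 1 kainate array, and the log2 fold change of 0.83 ± 0.19 SE had a limma adjusted p of 0.337, or 0.0502 with the cluster as a block.

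The promoter window of Gfap is shown because Gfap is the gene that passed the test. It spans 250 bases before to 50 after the annotated gene start on the minus strand (RefSeq, GRCm38.p6, chr11:102897151-102897450), and capitals mark a match to the STAT-type motif TTCNNNGAA.
Gfap promoter: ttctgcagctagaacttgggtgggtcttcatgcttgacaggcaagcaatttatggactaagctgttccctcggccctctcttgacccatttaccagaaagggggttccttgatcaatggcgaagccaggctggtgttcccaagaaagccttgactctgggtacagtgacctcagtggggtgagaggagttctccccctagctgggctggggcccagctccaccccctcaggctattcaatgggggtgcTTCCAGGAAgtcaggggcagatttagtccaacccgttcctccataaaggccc
Both strands were searched for this motif, for the AP-1-type motif TGANTCA, for the cAMP response element TGACGTCA and for the CArG box. The STAT-type motif, whose pattern reads the same on both strands, matched at position 249 of the window, next to the gene start, and the other motifs had no match in these letters. Of 32851 mouse promoters of this length, 8.3% hold the STAT-type motif, 7.81% the AP-1-type motif, 1.79% the cAMP response element and 1.63% the CArG box. A match is a description of the letters and not evidence of binding.

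**Figure D1:**
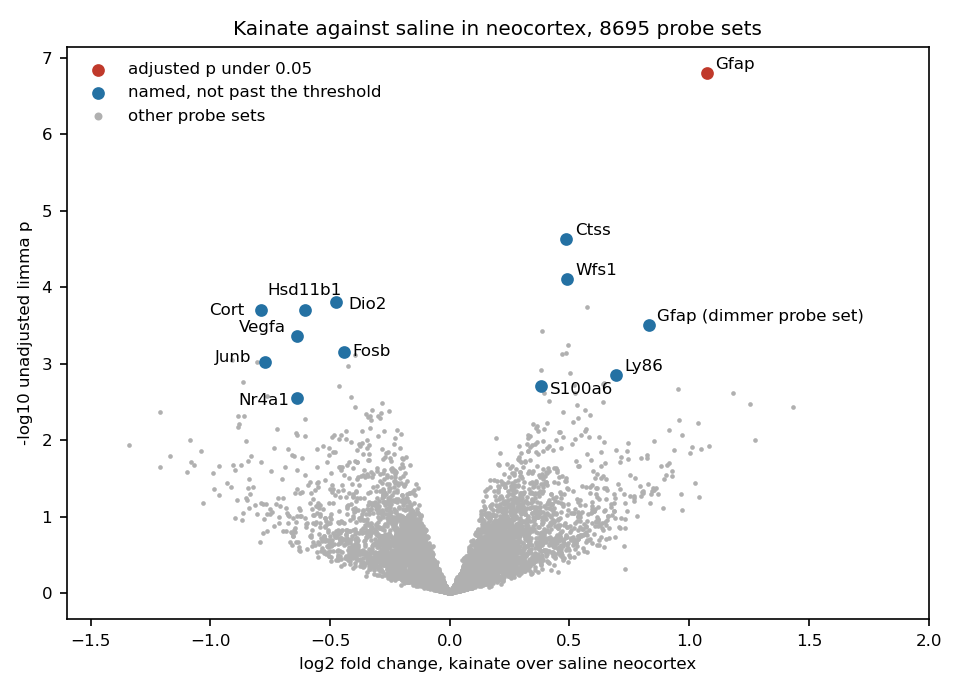
Log2 fold change of kainate over saline (horizontal) against −log10 of the unadjusted limma p (vertical) for the 8695 probe sets tested in neocortex. Gfap, at a log2 fold change of 1.07, is the only point past the adjusted threshold, and the blue points are named in the text without having passed it. The point labelled Junb is its dimmer probe set.

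At an unadjusted p under 0.05, 255 probe sets were higher with kainate (2.93%) and 229 were lower (2.63%), and 22 differed by over 2-fold. The lowest kainate array exceeded the highest saline array in 27 probe sets (0.311%), and the reverse held in 22 (0.253%). The genes that follow did not pass the adjusted threshold in the main test, which has no block, and they are described by their values. Of the alternatives without a block, Ctss passed with quantile normalization, with array weights and without the 3 arrays of brightest hybridization controls.

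Ctss encodes cathepsin S, a lysosomal protease of microglia and macrophages. Its signal was 4459.5, 4184, 4211, 4312 and 3782 with kainate, against 3348, 3173, 3033, 2874, 3147 and 2406 with saline. The groups did not overlap, and the lowest array of each group was the one with the brightest hybridization controls. The log2 fold change was 0.49 ± 0.09 SE (limma adjusted p 0.102), and with the cluster as a block it was 0.49 with an adjusted p of 0.00139. Within the dimmest, middle and brightest clusters the difference was 0.52, 0.43 and 0.65. Wfs1 encodes wolframin, a membrane protein of the endoplasmic reticulum. It read 3282, 3584, 2799, 3119.5 and 3419 with kainate, against 2578, 2429.6, 1904, 2282, 2325 and 2326 with saline, again without overlap. The log2 fold change was 0.49 ± 0.10 SE (limma adjusted p 0.226, and 0.0532 with the cluster as a block), and it was 0.43, 0.49 and 0.55 within the clusters. Wfs1 was 4448 in the saline hippocampus, so other hippocampal markers were set beside it. Dsp averaged 147.5 with kainate and 125.6 with saline, and Prox1 97.6 with kainate and 96.3 with saline, both too dim to be tested. Zbtb20 and Npy2r had log2 fold changes of 0.06 and 0.21 with overlapping groups. The 5 hippocampal markers, of which Wfs1 was the brightest, summed to 4212 to 5133 with kainate and 3372 to 3767 with saline. These sums did not overlap, and whether hippocampal tissue in the samples bears on Wfs1 was not tested.

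S100a6, a calcium-binding protein of reactive astrocytes, read 2224, 1821, 1556, 1684 and 1477 with kainate, against 1574, 1393, 1265, 1193, 1309.9 and 1255 with saline. The groups overlapped by 2 kainate arrays below the highest saline array, and the log2 fold change was 0.38 ± 0.11 SE (unadjusted p 0.00194). Serpina3n, a secreted protease inhibitor of reactive astrocytes, read 1244, 1472, 1211, 1511 and 1209 with kainate, against a lowest of 825.0, a median of 1069.5 and a highest of 1236 with saline. Its log2 fold change was 0.33. Of 18 tested genes of the reactive astrocyte list, Gfap, S100a6 and Serpina3n were higher at an unadjusted p under 0.05 (16.7%, against 2.93% of all probe sets). Bcan, the matrix proteoglycan brevican, was lower (−0.27, or −0.17 without kainate replicate 3), which is 5.56% against 2.63% of all probe sets. The list median was 0.03. Vim, another intermediate filament of reactive astrocytes, was dim and scattered, from 141.7 to 299.3 with kainate and from 52.8 to 420.5 with saline, and its log2 fold change of 0.29 was −0.03 without saline replicate 6. Among 24 general astrocyte genes, the water channel Aqp4 was higher at that p (0.33), or 4.17% of the list. The deiodinase Dio2, the gap junction protein Gjb6 (−0.23) and angiotensinogen (Agt, −0.96) were lower (12.5%), and the median was 0.00. Agt was dim with kainate, at 531 on kainate replicate 5 and 118.4 to 185.5 on the other kainate arrays.

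**Figure D2:**
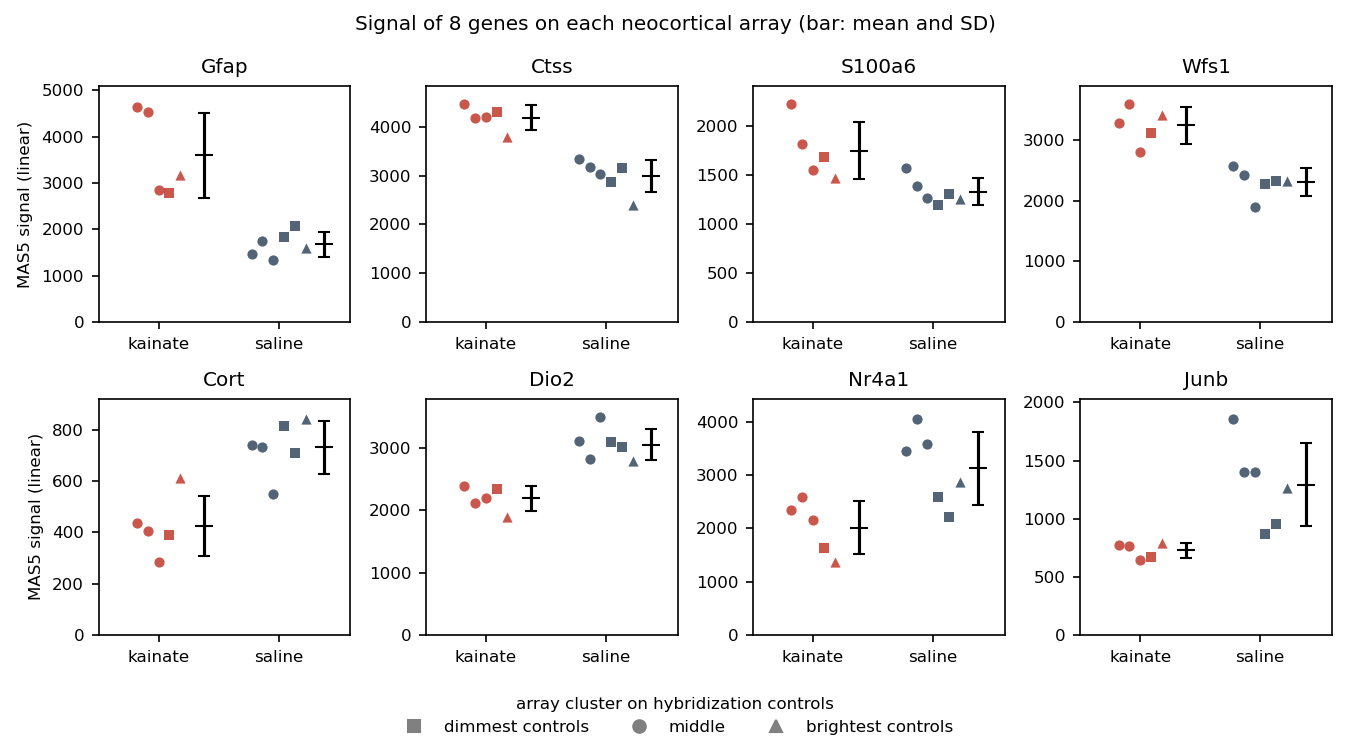
MAS5 signal (linear axis from 0) of 8 genes on each neocortical array, kainate on the left and saline on the right, with the mean and SD beside each group. Marker shapes give the cluster of arrays by hybridization controls, and the Gfap, Ctss, Wfs1, Dio2 and Junb panels show groups that do not overlap. The Junb panel shows its dimmer probe set, and the brighter one had overlapping groups.

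The microglia and macrophage list had 21 tested members. Of these, 4 were higher at an unadjusted p under 0.05 (19%, against 2.93% of all probe sets) and 0 were lower. The median log2 fold change was 0.12, against 0.00 over all probe sets. Besides Ctss they were Ly86, a partner of a Toll-like receptor homologue, Csf1r, the receptor that maintains microglia, and C1qb, a chain of complement C1q. Ly86 read 722.7, 500.2, 688.0, 656.0 and 735.2 with kainate, against 558.7, 278.4, 494.1, 309.6, 388.1 and 428.5 with saline. Only 1 kainate array lay below the highest saline array, and the log2 fold change was 0.70 ± 0.19 SE (limma adjusted p 0.538). Csf1r read 2955, 2562, 2588, 2655 and 2571 with kainate, against 2519.6, 2296, 1755, 1814, 1851 and 2425 with saline. The groups did not overlap, by a narrow margin, and the log2 fold change was 0.35 ± 0.11 SE. C1qb had a log2 fold change of 0.29 ± 0.11 SE and C1qa, its partner chain, 0.16 ± 0.09 SE, both with overlapping groups. Mpeg1, a pore-forming protein of macrophages, read from 521.4 to 905.0 with kainate and from 382.4 to 990.5 with saline, with no separation. The 4 fixed microglial markers (C1qa, Csf1r, Aif1 and Mpeg1) summed to 6255 to 7908 with kainate and 5177 to 7047 with saline, and whether more microglial RNA in the samples bears on these genes was not tested.

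In the complement and lysosome list of 26 tested genes, 3 were higher (11.5%) and 0 lower at that p, namely Ctss, C1qb and the protease Ctsl (0.46), and the median was 0.08. In the antigen presentation and interferon list, 1 of 23 was higher (4.35%, against 2.93% of all probe sets), the interferon-induced membrane protein Ifitm3 (0.36). In this list 0 were lower, and the median was 0.09. Its class I members H2-D1, H2-K1 and H2-M3 and their light chain B2m had log2 fold changes of 0.07, −0.14, 0.00 and 0.42, all with overlapping groups. Other probe sets of H2-D1 and H2-K1 had 0.12 and 0.06. Saline replicate 1 had the highest value of H2-D1, H2-K1 and B2m on any of the 11 arrays. The mean level of the microglia list per array, as a log2 deviation from the saline mean, ran from −0.05 to 0.30 with kainate and from −0.21 to 0.15 with saline. The groups overlapped, and the difference of means was 0.08, 0.18 and 0.14 within the 3 clusters.

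Immediate early genes, which neurons switch on within minutes of strong activity, had mostly negative values. Of 38 tested, 0 were higher and 5 were lower at an unadjusted p under 0.05 (13.2%, against 2.63% of all probe sets). The median log2 fold change was −0.14, and 29 of 38 were below 0 (76.3%, against 48.8% of all probe sets). Nr4a1, an orphan nuclear receptor, read 2341, 2583, 2159, 1629 and 1362 with kainate, against 3456, 4046, 3578, 2587, 2213 and 2874 with saline. The groups overlapped, with saline replicates 4 and 5 and kainate replicates 4 and 5 lowest in their groups. The log2 fold change was −0.64 ± 0.19 SE (limma adjusted p 0.688), and with the cluster as a block it was −0.70 with an adjusted p of 0.000758. Within the dimmest, middle and brightest clusters it was −0.55, −0.64 and −1.07.

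Fosb, a subunit of the AP-1 transcription factor, read 1239, 1236, 1350.3, 1930.2 and 1516 with kainate, against 1848, 2128, 2068, 2192, 1852 and 1675 with saline. Kainate replicate 4 lay inside the saline range, and the log2 fold change was −0.44 ± 0.11 SE (limma adjusted p 0.416). It was −0.06, −0.65 and −0.14 within the clusters, with the greatest difference in the middle one. Junb, a further AP-1 subunit, has 2 probe sets that disagree in size. The dimmer read 777.4, 760.6, 645.0, 673.6 and 786.5 with kainate, against 1856, 1404, 1402, 869.2, 954.3 and 1262 with saline, without overlap. Its log2 fold change was −0.77 ± 0.20 SE (limma adjusted p 0.431, and 0.00504 with the cluster as a block), whereas the brighter probe set gave −0.25 with overlapping groups. The DNA damage and stress genes Gadd45b and Gadd45g had log2 fold changes of −0.60 ± 0.21 SE and −0.49 ± 0.17 SE, and Ier2 one of −0.34 ± 0.13 SE with no overlap. Fos, the prototype of the group, read 1332, 1308, 1942, 1326 and 499.9 with kainate, against a lowest of 1154, a median of 1869 and a highest of 2164 with saline. Its groups overlapped widely, and the log2 fold change of −0.55 ± 0.29 SE was −0.24 without kainate replicate 5, the lowest array. Egr1 and Bdnf, both activity-regulated, were nearly level at −0.04 and −0.01.

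The mean level of the immediate early list per array ran from −0.20 to −0.02 with kainate and from −0.15 to 0.16 with saline. It also differed between the clusters in saline mice, where the middle cluster averaged 0.11 and the dimmest −0.09. Within the dimmest, middle and brightest clusters the kainate minus saline difference of this score was −0.11, −0.20 and −0.06. What the clusters stand for in handling or time of day is not given in the labels, and its part in these values was not tested.

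**Figure D3:**
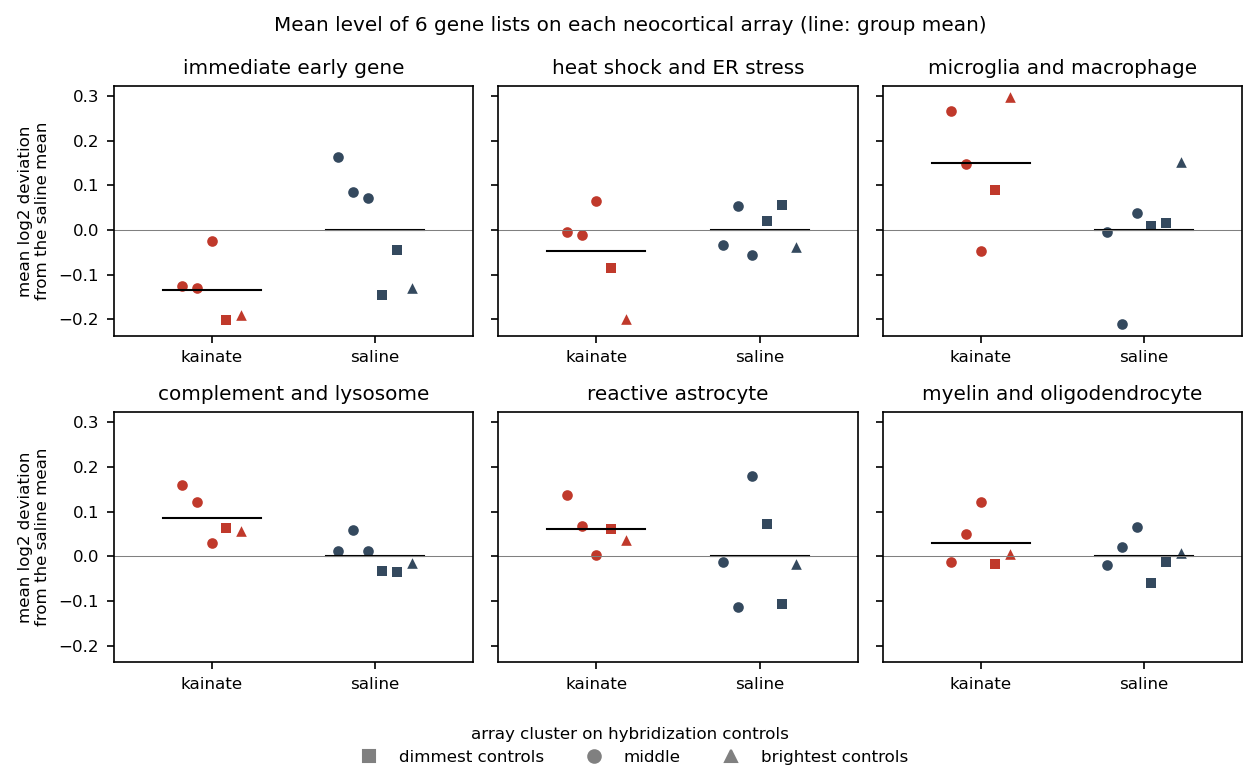
Mean log2 deviation from the saline mean (vertical) of 6 gene lists on each neocortical array, kainate left and saline right, with the group mean as a line and marker shapes for the clusters of arrays. The immediate early list spans −0.20 to −0.02 with kainate and −0.15 to 0.16 with saline, and every list shown overlaps between the groups.

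Cort encodes cortistatin, a neuropeptide of a subset of cortical interneurons. It read 436.5, 403.8, 284.3, 390.7 and 611.5 with kainate, against 743.1, 732.3, 548.7, 815.6, 711.4 and 841.9 with saline. Kainate replicate 5 alone lay inside the saline range. The log2 fold change was −0.79 ± 0.17 SE (limma adjusted p 0.251, and 0.04 with the cluster as a block), and it was −0.94, −0.83 and −0.45 within the clusters. Sst, the related peptide somatostatin, read 8573, 7900.5, 5891, 10889.9 and 10206 with kainate, against 10476, 9251, 10026, 12067, 11433 and 11882 with saline, with a log2 fold change of −0.35 ± 0.13 SE, or −0.21 without kainate replicate 3. Of 27 interneuron genes, Cort and Sst were lower at an unadjusted p under 0.05 (7.41%, against 2.63% of all probe sets). The fast potassium channel Kcnc1 was higher (0.96), or 3.7% of the list against 2.93% of all probe sets. Kcnc1 was dim, and its difference was 0.40, 0.91 and 2.29 within the dimmest, middle and brightest clusters. The synthetic enzyme Gad1 (0.06), the calcium buffer Pvalb (−0.15) and the peptides Npy (0.12), Cck (−0.08) and Penk (−0.28) had overlapping groups and an unadjusted p above 0.05.

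Dio2, the enzyme that activates thyroid hormone in astrocytes, read 2390.1, 2120.3, 2201, 2349 and 1896 with kainate, against 3109.9, 2819.8, 3495, 3089.9, 3018 and 2794 with saline. All kainate arrays lay below all saline arrays, and the log2 fold change was −0.48 ± 0.10 SE (limma adjusted p 0.251). Hsd11b1, which regenerates active glucocorticoid, read 636.8, 561.8, 662.9, 660.7 and 611.8 with kainate, against 948.0, 767.2, 828.8, 983.6, 1327 and 987.9 with saline. It too did not overlap (log2 fold change −0.60 ± 0.13 SE, limma adjusted p 0.251). Vegfa, the vascular growth factor, had a log2 fold change of −0.64 ± 0.15 SE, with kainate replicate 3 just inside the saline range. Fezf2, a transcription factor of deep-layer projection neurons, read 1637, 1619.9, 1564, 1539 and 1579 with kainate, against 1956, 1944, 1913, 2808, 1991 and 2326 with saline, again without overlap (−0.42 ± 0.11 SE). Pygm, a glycogen phosphorylase, had a log2 fold change of −0.46 ± 0.13 SE and no overlap. The others with the smallest p among the lower genes were B4galt2 (−0.43), a galactosyltransferase, Tex2 (−0.86), and the dim Med14 (−0.91) and Alox12b (−0.81), whose kainate arrays lay near or below the filter level of 127.7.

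Among the higher genes with the smallest p, Gnpda1, an enzyme of amino sugar breakdown (0.47), and Apaf1, the scaffold of the apoptosome (0.64), had groups that did not overlap, and Myo9a, an unconventional myosin (0.49), had groups that did. For 4 further genes another probe set disagreed. Sphk2, a sphingosine kinase, had 0.49 and −0.04 on its probe sets. Ube2h, a ubiquitin-conjugating enzyme, had 0.38 and −0.08. Qk, an RNA-binding protein of glia, had 0.50 and 0.15. Tm9sf3 had 0.64, 0.60 and −0.30.

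The heat shock and endoplasmic reticulum stress list of 43 tested genes had 0 higher and 5 lower members at an unadjusted p under 0.05 (11.6% lower, against 2.63% of all probe sets), with a median of −0.05. They were the secreted factor Manf (−0.34), the stress transcription factor Atf4 (−0.22), Herpud1 (−0.26), which acts in disposal of misfolded protein, the chaperone Hsp90b1 (−0.16) and the co-chaperone Dnajb5 (−0.42). Hspa5, the main chaperone of that compartment, had −0.19 with overlapping groups. The mean level of the list differed by −0.12, 0.03 and −0.16 within the clusters, so its direction was not the same in each.

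Ionotropic glutamate receptor genes, the class on which kainate acts, had a median of −0.07. Of 13 tested, the AMPA subunit Gria3 was higher (0.27 ± 0.12 SE) and the NMDA subunit Grin2c lower (−0.34 ± 0.15 SE) at an unadjusted p under 0.05, or 7.69% in each direction. The largest value in the list was that of the NMDA subunit Grin2d, at 0.54 ± 0.38 SE with overlapping groups. The AMPA subunits Gria1 and Gria2 had log2 fold changes of 0.06 ± 0.10 SE and 0.0015 ± 0.09 SE. The kainate receptor subunits Grik1, Grik2 and Grik5 had −0.10 ± 0.32 SE, −0.07 ± 0.14 SE and 0.04 ± 0.10 SE. The next counts are also at an unadjusted p under 0.05, which 2.93% of all probe sets passed as higher and 2.63% as lower. Of 40 voltage-gated channel genes, Kcnc1 was higher (2.5%). The potassium channels Kcna4 (−0.62, dim and near the filter level), Kcns1 (−0.48) and Kcnn1 (−0.36, or −0.22 without kainate replicate 5) were lower (7.5%). Of 59 oxidative phosphorylation genes, 1 was higher (1.69%) and 4 were lower (6.78%), among them the complex I subunit Ndufa7 (−0.34). Of 26 glucocorticoid targets, 0 were higher and 3 were lower (11.5%), among them the NF-kappa-B inhibitor Nfkbia (−0.33), and the median was −0.09. In the calcium list of 32, Wfs1 and the calcium buffer Calb1 (0.17) were higher, and the kinase Camk4 (−0.53, or −0.32 without kainate replicate 2) and a calcium pump were lower (6.25% in each direction). Of 16 myelin genes, the dim connexin Gjb1 was higher (0.74, 6.25% of the list), and Mobp (−0.18) and Gsn (−0.24) were lower (12.5%). Mbp, the main myelin basic protein, had 0.04. The growth factor Igf2, made by the meninges, had −0.24. No member of the cholesterol synthesis (26), cytosolic ribosomal protein (26) or blood cell (13) lists had an unadjusted limma p under 0.05, so the counts were 0 at the adjusted threshold as well. Hmgcs1, Fdps and Idi1 of the sterol pathway had 0.29, −0.18 and −0.13, and another Fdps probe set had 0.06.

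**Figure D4:**
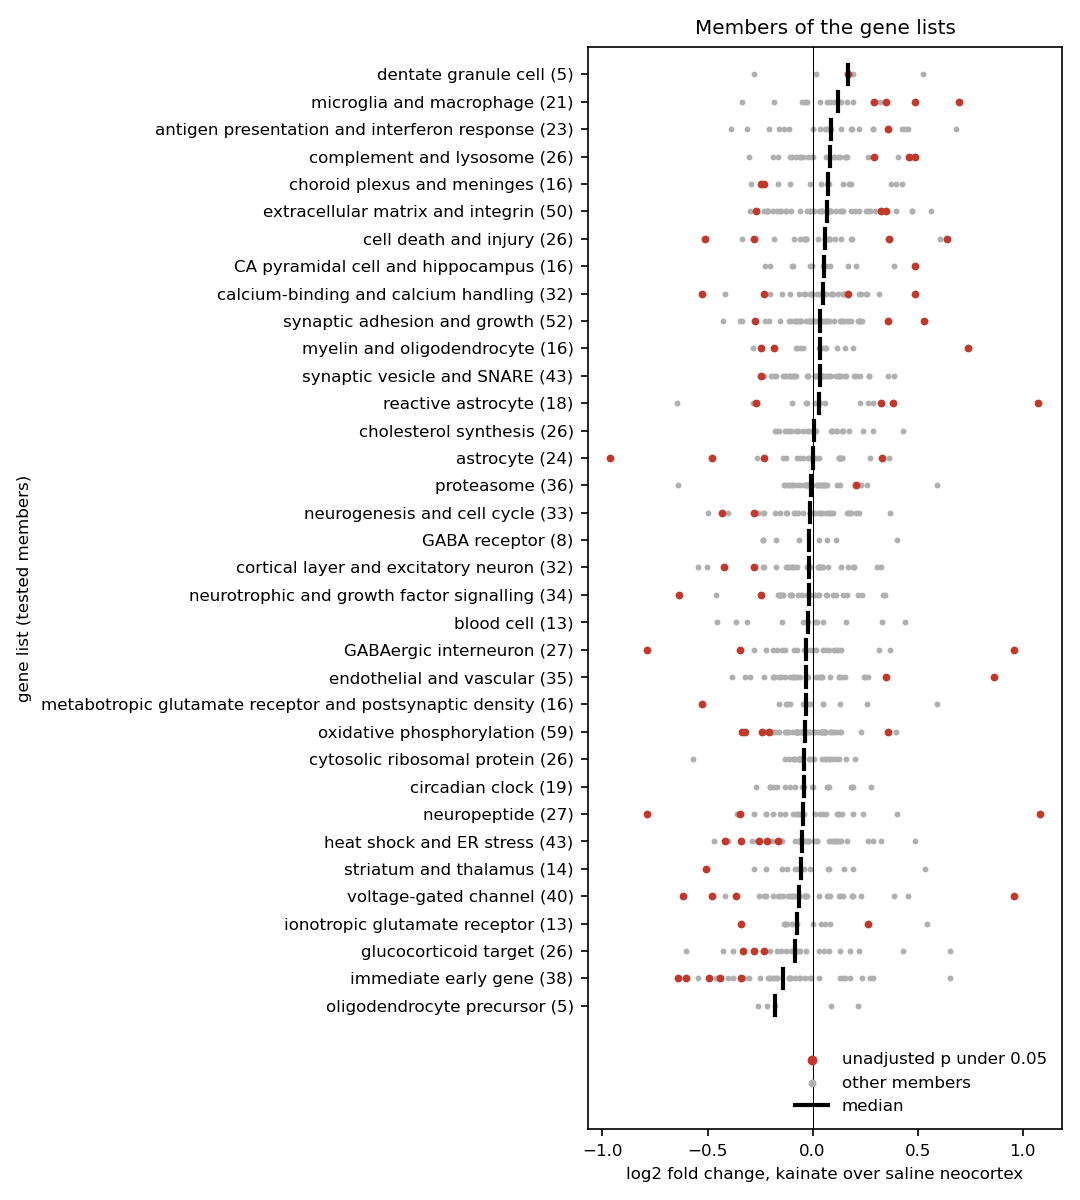
Log2 fold change of kainate over saline (horizontal) of every tested member of the lists with at least 5 tested genes (rows, with the number tested), red where the unadjusted p is under 0.05, with the list median as a bar. The immediate early list sits at a median of −0.14 and the microglia list at 0.12.

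Set against nicotine instead of saline, the kainate neocortex had 3 calls of 8695 (0.0345%), all higher, and 8 with the cluster as a block. This contrast uses the same kainate arrays, so the values are given side by side and are not a second sample of kainate mice. Gfap read 1640.5, 1828, 1672, 1808, 1776 and 1490.0 on the 6 nicotine arrays, all below the kainate arrays, and its log2 fold change over nicotine was 1.04 ± 0.14 SE (limma adjusted p 0.0023). Wfs1 read 2014, 1738, 2026, 2489, 2087 and 2349 with nicotine, and its log2 fold change over nicotine was 0.61 ± 0.10 SE (limma adjusted p 0.0187). S100a6 read 1097, 1289.6, 1138, 1158, 1084 and 1016 with nicotine and had 0.61 ± 0.11 SE (limma adjusted p 0.0381). With each array centred on its median, Gfap remained and Wfs1 and S100a6 had adjusted p-values of 0.102 and 0.134. Ctss had 0.48 ± 0.09 SE over nicotine with a limma adjusted p of 0.0558. For Cort the log2 fold change was −0.82 over nicotine, beside −0.79 over saline. For Nr4a1 it was −0.33 over nicotine and −0.64 over saline, and for the dimmer Junb probe set −0.09 over nicotine and −0.77 over saline.

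In the hippocampus the same injections gave 243 calls of 8695 (2.79%), 160 higher and 83 lower. With arrays centred on their medians these became 130 higher and 313 lower, with all hippocampal fold changes shifted by about −0.10. The kainate effect differed between the regions in 69 probe sets (0.794%), and in 67 of them the absolute log2 fold change was larger in the hippocampus. Of these 69 differences, 63 were higher in the hippocampus and 6 lower, or 35 and 12 with median centring. Which neocortical and hippocampal arrays came from 1 mouse is not given, so the test treats the arrays as independent. Differences are hippocampal minus neocortical values.

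Gfap rose in both regions, with a log2 fold change of 1.07 in the neocortex and 2.23 ± 0.10 SE in the hippocampus, and the difference was 1.16 ± 0.17 SE (limma adjusted p 4.35e-05). Ctss had 0.49 in the neocortex and 2.10 in the hippocampus (difference 1.62 ± 0.15 SE, limma adjusted p 8.77e-09). Mpeg1 had 0.13 in the neocortex and 2.98 in the hippocampus (difference 2.84 ± 0.30 SE, limma adjusted p 6.96e-08). This was the widest gap among the probe sets whose difference passed the threshold. The microglia list had a median of 0.12 in the neocortex, where 0 members were called, and of 1.42 in the hippocampus, where 20 passed the filter on dim probe sets and 15 of these were called higher. In 12 of its members the difference between regions passed the threshold. For the complement and lysosome list the median was 0.08 in the neocortex and 0.73 in the hippocampus, and 11 members differed.

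Further genes had larger values in the hippocampus. The complement chain C1qa had 0.16 in the neocortex and 1.82 in the hippocampus, and C1qb had 0.29 in the neocortex and 1.86 in the hippocampus. The class I gene H2-D1 had 0.07 in the neocortex and 1.80 in the hippocampus, and the galectin-binding protein Lgals3bp had 0.29 in the neocortex and 2.20 in the hippocampus. Laptm5, a lysosomal protein of blood-derived cells, had 0.03 in the neocortex and 1.35 in the hippocampus, and Serpina3n had 0.33 in the neocortex and 1.61 in the hippocampus. The difference passed the threshold for each of them on these probe sets. Another Laptm5 probe set had 0.24 in the neocortex and 0.96 in the hippocampus, and its difference did not pass (limma adjusted p 0.0973). Cort, at −0.79 in the neocortex and −1.19 in the hippocampus, and Nr4a1, at −0.64 in the neocortex and −0.77 in the hippocampus, were called lower in the hippocampus, with differences of −0.40 ± 0.30 SE and −0.13 ± 0.28 SE that did not pass. The sterol gene Idi1 had −0.13 in the neocortex and −1.03 in the hippocampus (difference −0.90 ± 0.17 SE, limma adjusted p 0.00209).

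In 2 of the 69 probe sets the absolute value was larger in the neocortex. Wfs1 had 0.49 ± 0.10 SE in the neocortex and −0.39 ± 0.12 SE in the hippocampus, a difference of −0.88 ± 0.16 SE (limma adjusted p 0.00109). Gadd45g had −0.49 ± 0.17 SE in the neocortex and 0.41 ± 0.15 SE in the hippocampus, a difference of 0.90 ± 0.22 SE (limma adjusted p 0.0407, and 0.1 with median centring). Probe sets called higher in the hippocampus had a median neocortical log2 fold change of 0.14, and those called lower a median of −0.07, against 0.00 over all probe sets. Both regions came from the same mice, so these medians are a description and not a second sample.

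**Figure D5:**
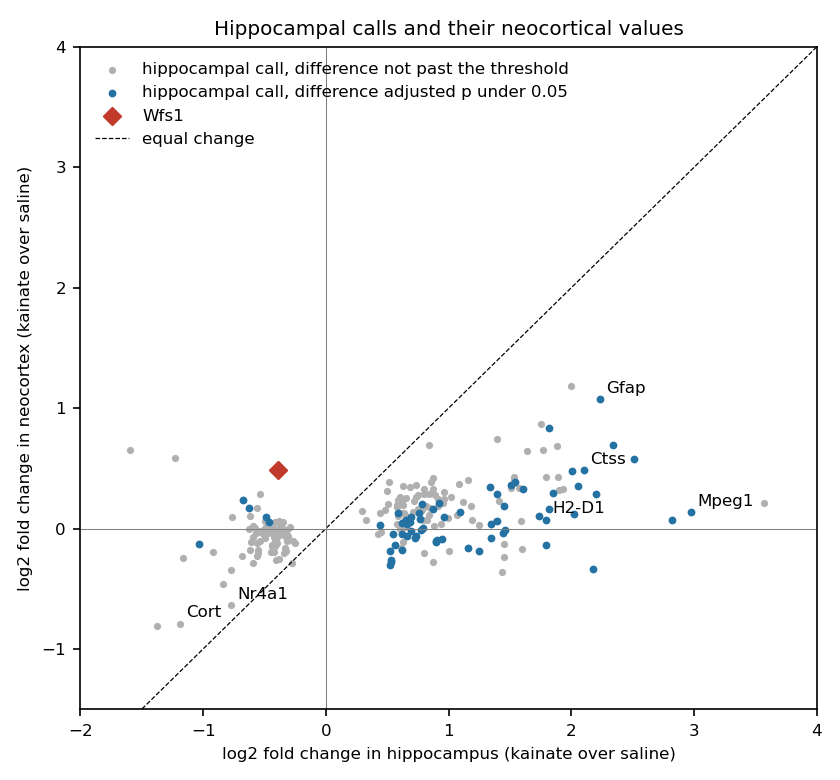
Log2 fold change of kainate over saline in the hippocampus (horizontal) and the neocortex (vertical) for the probe sets called in the hippocampus, and for Wfs1, with the dashed line at equal change. Blue points differ between regions at an adjusted p under 0.05, and Gfap lies at 1.07 in the neocortex and 2.23 in the hippocampus.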

How the data were processed

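Total RNA of 1 brain region per array was labelled as cRNA and hybridised to Affymetrix arrays, per the labels' protocols. The authors deposited MAS5 signals (linear intensity values), with MAS5 named in the submitters' processing notes without a version. The 2% trimmed mean of every array was 1000.53 to 1000.62, so the arrays had been scaled to a common level, which was kept. Of 12488 probe sets, 66 controls were left out. Of the rest, 10833 had 1 gene symbol, 396 had several and 1193 had none, and only the first kind was named, for 8251 genes.

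Values were taken as log2(signal + 16), a pseudocount that shrinks the differences of dim genes. Probe sets in the lowest 30 percent by mean level were dropped and the rest tested, 8695 in all, with a signal of 127.7 at the limit. Limma 3.58.1 in R 4.3.3 (lmFit, and eBayes with an intensity trend) was run on the 17 neocortical arrays, the 17 hippocampal arrays, or all 34 arrays for the difference between regions, and tested on simulated data. A call is a Benjamini-Hochberg adjusted p under 0.05 over all probe sets tested. Array quality was compared by exact permutation tests. The number of arrays limits the precision, and the median SE of a log2 fold change was 0.163. The lowest correlation between neocortical arrays was 0.933, and 0 pairs held identical values.

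Samples were grouped by title. The 36 gene lists held 1329 genes, of which 984 were on the array and 842 were tested, each by its brightest probe set. The comparison, the lists and the members were chosen with earlier results of these data known. Genes were named by rule: the calls, filled up to 12 per direction by the smallest p, up to 4 per list, a set of marker and activity genes, and the leading genes of the other contrasts. H2-K1 and H2-M3 were added after their values were seen. Arc and Slc17a7 of that set were not analysed here, and 1 further gene is not reported here. Alternatives changed the pseudocount, filter, scaling, arrays, trend, weights and blocks. The alternative without the 3 arrays of brightest hybridization controls was chosen after seeing the data. Python 3.11.15 with matplotlib 3.10.9 drew the figures.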

Additional observations from a re-analysis of the deposited data

Results flagged for a closer look

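In 9 of 188 groups of arrays of the named probe sets, 1 array lay far from the others of its group, and chance flags about 1 in 20 groups. With kainate these were replicate 5 for Agt (531, others 118.4 to 185.5), Gria2 (25324.7, the highest) and Gsn (2335.9, the lowest). They were also replicate 1 for Csf1r (2955.4, the highest) and Grik2 (432.5, the lowest), replicate 3 for Calb1 (3389.9, the highest) and replicate 2 for Camk4 (196, others 395.6 to 474.6). With saline these were replicate 1 for H2-D1 (3271.5, others 1158.8 to 1509.2) and replicate 2 for Kcns1 (391.7, the lowest).

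The kainate effect differed between hippocampus and neocortex, by the limma test of the difference, in 20 of the 94 named probe sets. Over all probe sets it differed in 69 of 8695 (0.794%). Some were named because they led this contrast or the hippocampal calls, so the count of 20 is a description and not a rate. As the hippocampal minus the neocortical log2 fold change, the difference was 1.158 and 0.9886 for the 2 Gfap probe sets, 1.615 for Ctss, 1.645 for Ly86, 1.162 for S100a6, 1.28 for Serpina3n, 0.9915 for Csf1r, 1.564 for C1qb and 1.653 for C1qa. It was 2.842 for Mpeg1, 1.534 for Ctsz, 1.721 for H2-D1, 1.928 for H2-K1, 1.145 for Ifitm3, 1.918 for Lgals3bp, 0.904 for Gadd45g and 1.314 for Laptm5. It was −0.8762 for Wfs1, −0.7951 for Calb1 and −0.8986 for Idi1. With median centring or quantile normalization Ctsz had adjusted p-values of 0.0896 and 0.0988 and Gadd45g of 0.1 and 0.0573, and with median centring the dimmer Gfap probe set had 0.0919. The difference had limma adjusted p-values of 0.185 for another H2-K1 probe set and 0.0973 for another Laptm5 probe set.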

How the results depend on the processing

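Gfap was called under each of the 24 alternatives, with log2 fold changes of 0.97 to 1.16 and adjusted p-values of 1.92e-06 to 0.0343. The number of calls was 1 whichever kainate or saline array was left out. It was 2 with quantile normalization, array weights or without the 3 arrays of brightest hybridization controls, the second being Ctss. With the control cluster block it was 6, 3 higher and 3 lower: Gfap, Ctss, Nr4a1, Junb, Cort and 1 probe set that does not have exactly 1 gene symbol. Replicate numbers are shared between groups, but the deviations of same-numbered kainate and saline arrays correlated at 0.21, 0.10, 0.02, 0.12 and −0.17. The numbers were therefore not taken to pair mice, and not every array correlated best with its own number. Kainate replicate 5 correlated at 0.30 with saline replicate 6, the highest value, and both lie in the brightest cluster. A replicate block gave 3 calls. Against nicotine there were 1 with median centring, 5 with the replicate block and 8 with the control cluster block, and in the hippocampus 443 with median centring. Directions turned for genes that were not called, with full-data values of 0.29 for Vim, 0.13 for Mpeg1, −0.14 for H2-K1 and between −0.10 and 0.07 for the others. Over the arrays left out, Vim ran from -0.03227 to 0.5008, Mpeg1 -0.02248 to 0.2569, H2-D1 -0.01531 to 0.2816, Egr1 -0.08831 to 0.01918, Bdnf -0.1119 to 0.06646, Gria1 -0.005299 to 0.1124, Gria2 -0.0504 to 0.0518, Grik1 -0.3161 to 0.09274, Grik2 -0.1292 to 0.013, Grik5 -0.005805 to 0.1021 Laptm5 -0.0244 to 0.07711, Cux2 0.02113 to 0.1026, Camk2a -0.1354 to 0.0778, H2-K1 -0.2325 to 0.04966 and H2-M3 -0.2589 to 0.2264. Without the 3 bright arrays Vim was -0.07099, Egr1 0.009506, Gria1 -0.0224, Gria2 -5.71e-05, Grik1 0.02415, Laptm5 -0.004073, Cux2 -0.007718 and Camk2a 0.006202. Array weights gave Egr1 0.03137, Gria2 -0.002925, Grik1 0.02098 and Camk2a 0.0329, the replicate block Camk2a 0.06227, the control cluster block Bdnf 0.01814, Gria2 -0.01556 and H2-M3 -0.009013, and median centring Gria2 -0.009299 and H2-M3 -0.00883. H2-M3 was -0.01023 with a pseudocount of 64 and -0.01205 with quantile normalization. Leaving out 1 array moved by over 1.5 times, without turning it, the value of Ctsz (0.31 without saline replicate 6), Lgals3bp (0.19 without saline replicate 5), Hmgcs1 and Fdps (0.15 and −0.10 without kainate replicate 3), Npy2r (0.11 without saline replicate 1), Hspa5 (−0.32 and −0.09 without kainate replicates 3 and 5) and Penk (−0.15 without kainate replicate 2 and −0.43 without saline replicate 6), and of Bcan, Vim, Fos, Sst, Camk4 and Kcnn1 as given beside their values. The cause was not tested.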
